A study of Mus musculus with 8 samples.

Results

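Genes of oxidative phosphorylation were followed in mouse melanomas, complex by complex. They were taken as the genes on the array whose symbol starts with Nduf, Uqcr or Atp5, is Sdha to Sdhd, Cyc1 or Cycs, or is Cox followed by a number from 4 to 8. The rule uses no measured value, and the probe with the highest mean over the 8 arrays stood for each gene. It found 87 of 16593 named genes, and 81 of the 87 passed the filter on low values. Complex I contributed 33 subunit genes, complex II 3, complex III 9, complex IV 18 and complex V 16. The others were the electron carrier gene Cycs, 5 assembly factors of complex I, the supercomplex factor Cox7a2l and the pseudogene Ndufs5-ps. The 6 that did not pass were Ndufs1, Uqcrfs1, Uqcrq, Cox7b2, Cox8c and Atp5k, and symbols of the rule that had no probe in the value table, such as Sdha, were not analysed here.

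Complexes I and II pass electrons from NADH and succinate to ubiquinone, complex III passes them to cytochrome c, and complex IV passes them to oxygen. Complexes I, III and IV pump protons across the inner mitochondrial membrane, and complex V, the ATP synthase, makes ATP as the protons flow back. Several complex IV subunits exist in a form for heart and skeletal muscle (Cox6a2, Cox7a1, Cox8b) and a form for other tissues (Cox6a1, Cox7a2, Cox8a). In melanoma, respiratory genes are known as targets of the coactivator gene Ppargc1a, which the pigment cell regulator Mitf can switch on.

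RNA from 8 whole melanomas of C57BL/6 mice was labelled with biotin and measured on Illumina bead arrays, in 4 groups of 2. All mice carried BrafCA, a Braf allele that Cre activates, and Tyr::CreER, which drives a tamoxifen-dependent Cre from the promoter of the pigment cell gene Tyr. The ear, flank and tail skin of pups was painted with 4-hydroxytamoxifen on postnatal days 2 to 4. WT mice had the normal interferon receptor gene (Ifnar1+/+), with tumours taken 38 days after tamoxifen. SA mice had Ifnar1SA, an allele known for a receptor chain that resists degradation, with tumours taken after 20, 38 and 60 days. The genotype labels were followed for SA, because the labels' treatment text names Ifnar1-/- in its place. By its title the study asks about type I interferon, senescence after oncogene activation and melanoma, and the 4 comparisons here set SA against WT at day 38 and the 3 times of SA against each other.

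The arrays differed in what tissue they held and in sex. The 8 melanocyte markers past the filter were low on both WT arrays and on SA day 20 replicate 1, where their median deviation from the mean over the 8 arrays was −1.61, −1.59 and −1.90 on the log2 scale. On the other 5 arrays it ran from −0.44 to 2.15, and the pigment enzyme gene Tyr read 7.27 and 7.21 in WT against 10.10 and 10.64 in SA at day 60. For the 8 markers of keratinocytes, the main cells of the epidermis, the median deviation stayed within −0.03 and 0.34, but single markers differed by more. From day 20 to day 38 in SA, 6 of the 8 read lower and 2 higher, and the lowest was Krt1 at −1.65. From day 20 to day 60, 3 read lower and 5 higher, and the lowest was Ivl at −1.88, with 0 called in either. Xist, the RNA of the silenced X chromosome in females, read 9.69 and 9.20 in SA at day 38 against 6.84 to 7.56 on the other arrays, and the Y-linked gene Eif2s3y read 6.11 and 6.20 against 11.37 to 11.80. At day 38, genotype and sex cannot be told apart, and in the time course neither can day 38 and sex. In whole tumours, fewer cells of a type and less RNA per cell cannot be told apart either.

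Most oxidative phosphorylation genes differed little between the 8 tumours. The median gene spanned 0.60 log2 units from its lowest to its highest array, against 0.88 for all 11661 features tested, and 27 of the 81 (33.3%) spanned under 0.5 against 14.3% of all features. Atp5b, the catalytic beta subunit of the ATP synthase, spanned 0.15, but its deposited intensities ran from 64738 to 71767, the highest value in the table, so that span is not read as steadiness. The same limit holds for Atp5g3, which spanned 0.20 at intensities from 62416 to 71438. Only 3 genes (3.70%, against 11.9% of all features) spanned over 2 log2 units, and these were the muscle isoforms Cox6a2, Cox7a1 and Cox8b. After them came Cox4i2 with a span of 1.46 and Ndufs4 with 1.41.

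The 81 genes, muscle isoforms included, shifted together on some arrays. The median gene deviated from its own mean over the 8 arrays by −0.08 and −0.12 in WT, by 0.05 and 0.20 in SA at day 20, by −0.09 and 0.19 at day 38 and by −0.02 and −0.09 at day 60. SA day 38 replicate 2 and SA day 20 replicate 2 were thus the high arrays, and the pair from SA at day 38 lay far apart. All 5 complexes shared that order within the day 38 pair, with complex I at −0.12 and 0.18, complex III at −0.02 and 0.18 and complex V at −0.09 and 0.17. The median gap between replicates of a group was 0.28 for these genes in the SA day 38 pair, and 0.11, 0.15 and 0.14 in the pairs from WT, SA day 20 and SA day 60. Over all features the gap was 0.24 in the SA day 38 pair, close to that of these genes. It was 0.15, 0.27 and 0.23 in the pairs from WT, SA day 20 and SA day 60.

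**Figure D1:**
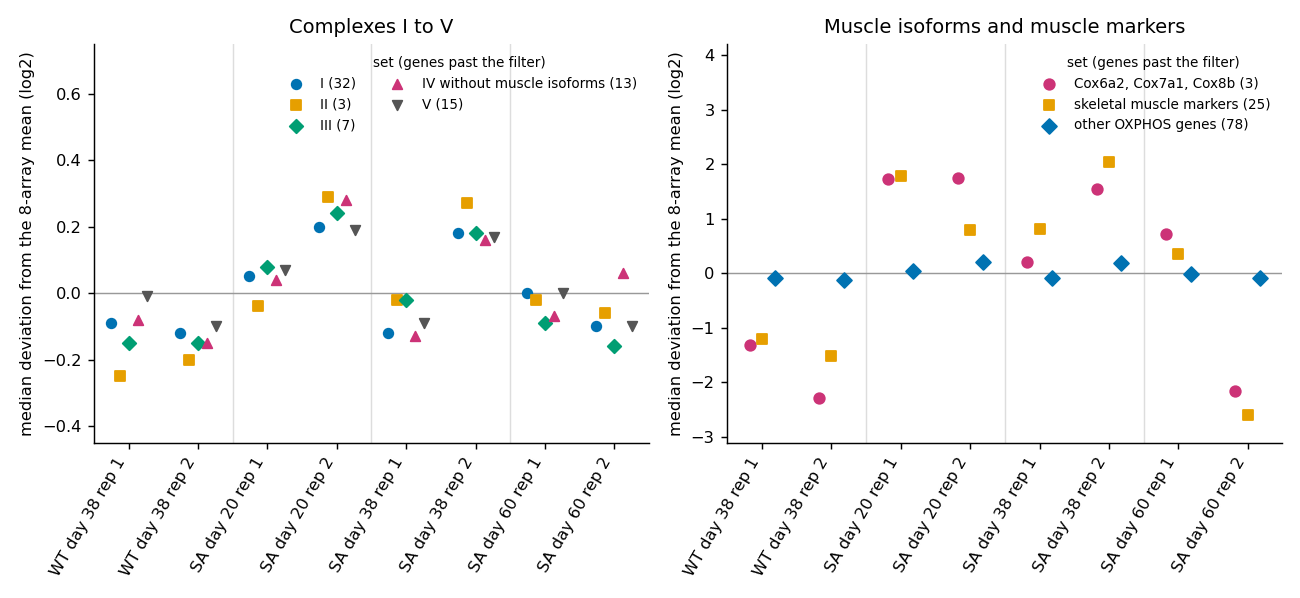
Median deviation of each set of genes from its mean over the 8 arrays, in log2 units, with arrays along the horizontal axis and 1 point for each set and array; the vertical scales of the panels differ. The left panel holds complexes I to V with complex IV lacking its muscle isoforms, and its points stay between −0.25 and 0.29; the right panel sets the 3 muscle isoforms and the 25 skeletal muscle markers, which run from −2.59 to 2.04, beside the other 78 genes.

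When SA was set against WT at day 38, 61 of the 81 genes read higher in SA and 20 lower, with a median log2 difference of 0.17 against −0.02 over all features, of which 47.0% read higher and 53.0% lower. After Benjamini-Hochberg adjustment limma called 0 of the 81, against 7 of all 11661 features (0.0600%). An unadjusted p under 0.05 was found for 7 genes higher and 0 lower, where 6.23% of all features were higher and 7.86% lower. The groups did not overlap for 30 genes that were higher and 6 that were lower, against 24.1% and 30.1% of all features. The median rested on the day 38 pair: it was 0.021 without SA day 38 replicate 2 and 0.29 without replicate 1.

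All 3 complex II genes and all 7 tested complex III genes read higher in SA at day 38 than in WT, with medians of 0.35 and 0.19. Complex I had a median of 0.17, complex IV 0.19, or 0.12 without its muscle isoforms, and complex V 0.08. Without SA day 38 replicate 2 the medians of complexes I to V were −0.0052, 0.17, 0.087, 0.026 and 0.031, and without replicate 1 they were 0.27, 0.49, 0.35, 0.42 and 0.25. Sdhc, a membrane anchor of succinate dehydrogenase, read 13.04 and 13.10 in WT and 13.29 and 13.56 in SA at day 38. That difference was 0.36 (SE 0.17), and the pairs did not overlap. Cyc1, the cytochrome c1 of complex III, read 12.29 and 12.11 in WT and 12.53 and 12.89 in SA, a difference of 0.51 (SE 0.21). Neither passed, with adjusted p-values of 0.389 and 0.349 in limma, and with 1 array left out in turn the differences ran from 0.22 to 0.49 and from 0.33 to 0.69.

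Within complex I the smallest p belonged to Ndufs7, the subunit that carries the last iron-sulphur cluster before ubiquinone. Ndufs7 read 13.48 and 13.26 in WT, 13.83 and 14.24 in SA at day 38, 14.02 and 14.05 at day 20 and 13.75 and 13.76 at day 60. Both WT arrays lay below the 6 SA arrays. The difference at day 38 was 0.66 (SE 0.18, 95% interval 0.23 to 1.10), a 1.58-fold higher level, with an adjusted p of 0.246 in limma. The accessory subunit gene Ndufa10 read 13.44 and 13.34 in WT and 13.75 and 13.96 in SA, a difference of 0.47 (SE 0.15, adjusted p = 0.280), and its WT arrays too lay below the other 6. The lowest differences were −0.35 for Ndufab1, the acyl carrier protein, and −0.33 for the assembly factor Ndufaf3, which ran from −0.47 to −0.19 over the arrays left out. Ndufab1 read 7.51 and 7.66 in WT and 6.95 and 7.53 in SA, so its groups overlapped. Its mean of 7.28 over the 8 arrays barely passed the filter at 7.24, and WT was its highest group.

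In complex V, Atp5g1, Atp5g2 and Atp5g3 encode the same protein of the membrane ring that turns with proton flow, and their differences in SA against WT at day 38 were 0.59, 0.36 and 0.08. Atp5g2 read 12.27 and 12.15 in WT and 12.65 and 12.49 in SA, which gave an adjusted p of 0.349 in limma. Atp5l, subunit g, read 11.19 and 11.02 in WT and 10.94 and 10.82 in SA, a difference of −0.23 (SE 0.16, from −0.31 to −0.15 over the arrays left out), and was among the few genes whose SA arrays both lay below WT. The 3 genes on the X chromosome, Ndufa1, Ndufb11 and Cox7b, had a median difference of 0.01 between these groups of unlike sex.

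**Figure D2:**
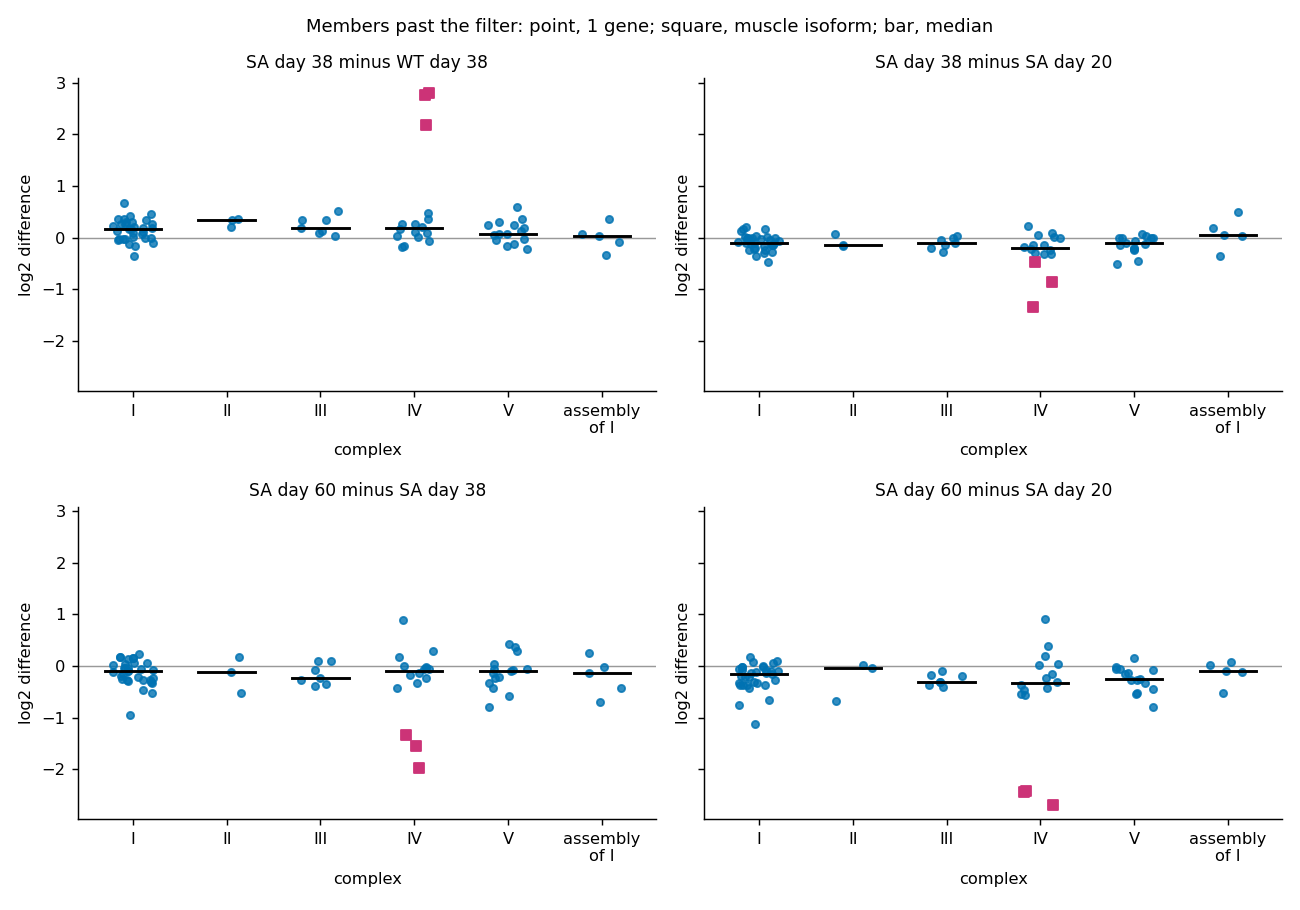
Log2 difference of each gene past the filter in the 4 comparisons, grouped by complex, where a point is 1 gene, a square a muscle isoform and a bar the median; Cycs, Cox7a2l and Ndufs5-ps are not drawn. The muscle isoforms of complex IV lie at 2.18 to 2.81 in SA against WT at day 38 and at −2.69 to −2.41 from day 20 to day 60, away from the other genes.

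The largest differences between tumours belonged to the muscle isoforms of complex IV. Cox8b, the muscle form of subunit 8, read 11.17 and 10.35 in WT, 14.42 and 14.43 in SA at day 20, 12.90 and 14.24 at day 38, and 13.41 and 10.61 at day 60. Cox6a2, the muscle form of subunit 6a, read 12.75 and 11.57 in WT, 15.47 and 15.30 at day 20, 14.20 and 15.65 at day 38, and 14.76 and 11.13 at day 60. Cox7a1, the muscle form of subunit 7a, read 10.36 and 9.72 in WT, 13.49 and 13.64 at day 20, 11.24 and 13.19 at day 38, and 12.23 and 9.52 at day 60. All 3 were high on both day 20 arrays and low on both WT arrays, and at day 60 replicate 1 was high and replicate 2 lay within or below the WT values. The 2 arrays of day 60 differed by 3.63 log2 units in Cox6a2, the largest gap between replicates among the 81 genes.

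Against WT at day 38, SA tumours read 2.81 higher for Cox8b (SE 0.90, 95% interval 0.65 to 4.97), 2.76 higher for Cox6a2 (SE 1.14, 6.79-fold) and 2.18 higher for Cox7a1 (SE 0.95, 4.53-fold). The groups did not overlap, but with this spread limma gave adjusted p-values of 0.279, 0.351 and 0.372. For Cox7a1 the difference was 1.21 without SA day 38 replicate 2 and 3.15 without replicate 1. From day 20 to day 60 the differences in SA were −2.41, −2.44 and −2.69, with adjusted p-values of 0.180, 0.254 and 0.167, and the groups again did not overlap. They were −1.02, −0.62 and −1.34 without SA day 60 replicate 2 and −3.81, −4.25 and −4.05 without replicate 1. From day 38 to day 60 they were −1.56, −1.98 and −1.34, with overlapping groups, and without SA day 60 replicate 2 they became −0.16, −0.16 and 0.01.

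The isoforms of the same subunits that other tissues use had small differences. Cox6a1 ran from 13.54 to 13.96 over the 8 arrays, Cox7a2 from 10.09 to 10.53 and Cox8a from 14.14 to 14.92. Against WT at day 38 their differences in SA were 0.12, −0.19 and 0.03, and from day 20 to day 60 they were 0.03, −0.15 and 0.38, with 0 called in either. Cox4i1, the general form of subunit 4, ran from 15.06 to 15.39. Cox6b1 and its testis form Cox6b2 differed by 0.18 and 0.47 in SA against WT at day 38, with adjusted p-values of 0.718 and 0.418 in limma. A second probe of Cox6b2, which did not pass the filter, gave −0.73.

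Markers of skeletal muscle were likewise low in WT and on SA day 60 replicate 2. Of 28 markers on the array 25 passed the filter, and the 3 that did not, Myh7, Mylk2 and Tnni1, include 2 genes of slow fibres. The summed intensity of the 25 was 117829 and 103410 in WT, 610178 and 401857 in SA at day 20, 410987 and 671243 at day 38, and 315648 and 47083 at day 60. Ckm, the muscle creatine kinase, read 10.27 and 10.44 in WT, 13.26 and 14.82 in SA at day 38, and 12.42 and 8.18 at day 60, so day 60 replicate 2 was the lowest array in both. In SA against WT at day 38, 24 of the 25 markers read higher (47.0% of all features did), with a median of 2.76 and 0 called. From day 20 to day 38, 13 of the 25 read higher and 12 lower (51.1% and 48.9% of all features did), with a median of 0.07. The markers ran from −2.47 for Mb to 2.67 for Actn3, while Cox8b, Cox6a2 and Cox7a1 differed by −0.85, −0.46 and −1.35. The 10 white fat markers past the filter were also higher in SA than in WT at day 38 (47.0% of all features were), with a median of 3.31. Limma called 1 of the 10, against 7 of all 11661 features (0.0600%). The summed intensities of the 10 markers were 10308 and 13804 in WT against 71353 and 87110 in SA. Of 6 brown fat markers on the array 3 passed the filter, and Ucp1, which defines brown fat, did not. All 3 read higher in SA than in WT at day 38 (47.0% of all features did), with a median of 0.84 and 0 called. From day 20 to day 38 all 3 read lower without overlap (19.4% of all features did), with a median of −1.69 and 0 called. The part of muscle or fat tissue in the complex IV values was not tested.

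**Figure D3:**
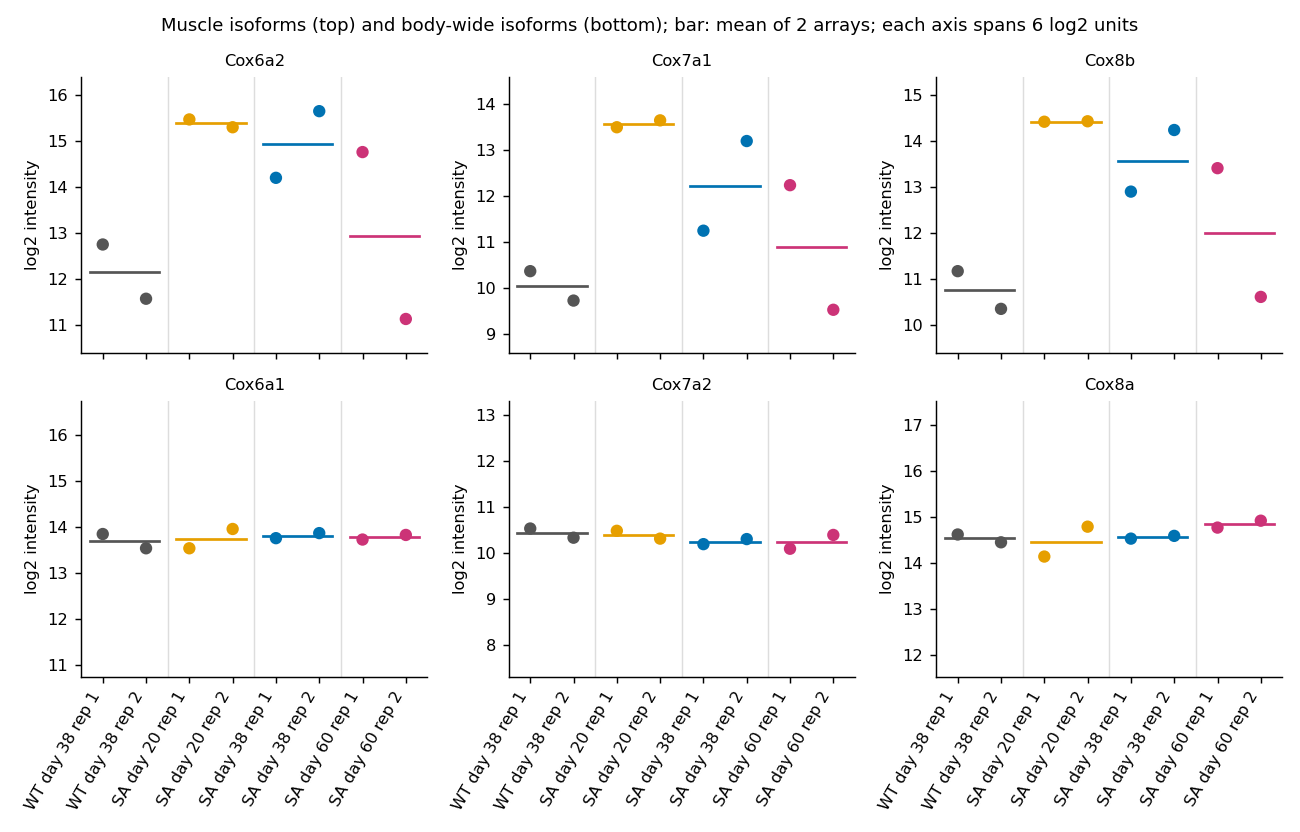
Log2 intensity of the muscle isoforms Cox6a2, Cox7a1 and Cox8b and of their partners Cox6a1, Cox7a2 and Cox8a on each of the 8 arrays, 1 point an array with a bar at each group's mean. The muscle isoforms span 4.08 to 4.52 log2 units over the arrays and their partners 0.42 to 0.78; levels of different probes are not comparable.

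The 300 bases around the start sites of pairs from that contrast are shown to set the muscle isoforms beside their partners (250 bases before the start and 50 after it, in the direction of transcription, from RefSeq on GRCm38.p6). Cox7a1 lies on the plus strand at chr7:30183921-30184220, Cox7a2 on the minus strand at chr9:79759804-79760103, Cox8b on the minus strand at chr7:140900397-140900696 and Cox8a on the minus strand at chr19:7217567-7217866. Capitals mark CAGCTG, an E-box that muscle regulators such as MyoD are known to bind, and CCGGAAG, the core bound by GABP, which appears here on the opposite strand as CTTCCGG.
Cox7a1: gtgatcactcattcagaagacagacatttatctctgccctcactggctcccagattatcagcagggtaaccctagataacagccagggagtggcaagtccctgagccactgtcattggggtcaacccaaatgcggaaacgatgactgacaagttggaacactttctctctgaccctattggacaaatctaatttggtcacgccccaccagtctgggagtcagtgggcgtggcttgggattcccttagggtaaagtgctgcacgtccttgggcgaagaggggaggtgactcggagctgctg
Cox7a2: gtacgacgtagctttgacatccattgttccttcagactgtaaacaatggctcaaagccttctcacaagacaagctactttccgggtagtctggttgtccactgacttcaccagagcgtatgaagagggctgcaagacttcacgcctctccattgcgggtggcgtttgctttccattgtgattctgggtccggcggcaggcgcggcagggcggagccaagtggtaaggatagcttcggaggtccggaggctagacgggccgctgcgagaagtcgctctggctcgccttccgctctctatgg
Cox8b: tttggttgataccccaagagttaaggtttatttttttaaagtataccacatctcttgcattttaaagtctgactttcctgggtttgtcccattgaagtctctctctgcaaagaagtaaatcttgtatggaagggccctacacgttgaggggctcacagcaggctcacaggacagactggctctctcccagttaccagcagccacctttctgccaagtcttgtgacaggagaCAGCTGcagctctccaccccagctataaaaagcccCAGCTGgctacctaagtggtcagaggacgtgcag
Cox8a: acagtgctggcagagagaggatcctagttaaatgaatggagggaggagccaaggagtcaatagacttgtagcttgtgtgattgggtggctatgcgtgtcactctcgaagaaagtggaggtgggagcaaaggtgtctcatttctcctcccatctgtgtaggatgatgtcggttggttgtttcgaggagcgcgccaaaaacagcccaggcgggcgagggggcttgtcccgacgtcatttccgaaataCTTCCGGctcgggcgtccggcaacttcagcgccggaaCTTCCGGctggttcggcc

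The Cox7a1 and Cox8b windows held fewer CpG dinucleotides, with 7 and 2 against 20 in Cox7a2 and 19 in Cox8a. Cox6a2, the other muscle isoform, had no window. The Cox8b window held CAGCTG at 2 places and the Cox8a window CTTCCGG at 2 places, and the Cox7a1 and Cox7a2 windows held neither. Windows were found for 71 of the 87 genes, 76 windows in all, and their median GC content was 57.5% with 19 CpG, against 52.7% and 7 over all 32851 windows of the genome. On either strand, 22.4% of the 76 held CCGGAAG against 8.86% of all windows, and 25.0% held the palindromic NRF1 site against 6.23% (no motif searched contains another). AAGGTCA, which ERR receptors are known to bind, was in 9.21% against 4.72%, and CAGCTG in 6.58% against 16.3%. A match here is a description of letters and not a bound site.

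Across the time course of SA tumours the genes tended towards lower values. From day 20 to day 38, 23 of the 81 read higher and 58 lower, with a median of −0.10 against 0.01 over all features, of which 51.1% read higher and 48.9% lower. Limma called 0 of them against 2 of all features (0.0172%). At an unadjusted p under 0.05 there was 1 gene higher and 0 lower, against 4.77% and 5.91% of all features. That gene was Ndufaf7, which methylates a complex I subunit during assembly. Ndufaf7 read 9.25 and 9.38 at day 20, 9.73 and 9.90 at day 38, and 9.26 and 9.52 at day 60. Its day 38 arrays lay above the other SA arrays, and the difference from day 20 was 0.49 (SE 0.16, adjusted p = 0.356), while WT, at 9.86 and 9.92, lay close to SA at day 38. The median over the 81 genes was 0.043 without SA day 38 replicate 1 and −0.0035 without SA day 20 replicate 2, so its size and direction depended on those arrays.

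Lower values from day 20 to day 38 were seen for Ndufb9, an accessory subunit of complex I, at −0.48, for Atp5e, the epsilon subunit of the ATP synthase, at −0.51 and for Ndufa4, a complex IV subunit named for complex I, at −0.31. Without SA day 38 replicate 2 Atp5e was at −0.88 and Ndufa4 at −0.49, and without replicate 1 they were at −0.14 and −0.13. Ndufb9 read 10.12 and 10.27 at day 20 and 9.59 and 9.85 at day 38. Complex IV had a median of −0.20, or −0.15 without the muscle isoforms, and the other 4 lay between −0.14 and −0.09. Its median was −0.38 without SA day 38 replicate 2 and −0.031 without replicate 1.

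From day 38 to day 60, 23 genes read higher and 58 lower, with a median of −0.11 against 0.04 over all features, of which 53.7% read higher and 46.3% lower. Limma called 0 of the 81, against 125 of all features (1.07%). At an unadjusted p under 0.05 there was 1 gene higher and 9 lower, against 15.1% and 11.0% of all features. This comparison shares the SA day 38 arrays with that against WT, and its median was 0.017 without SA day 38 replicate 2 and −0.25 without replicate 1. The 9 lower genes became 3 and 17 in those fits. Complex III had a median of −0.24, and without SA day 38 replicate 1 it was −0.25, against −0.35 in complexes IV and V. There Uqcrc2, a core protein, read 14.73 and 14.98 at day 38 and 14.42 and 14.50 at day 60, a difference of −0.39 (SE 0.17) with no overlap.

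Ndufs4 had the smallest p of all 81 genes in this comparison. It encodes an accessory subunit at the NADH-oxidising end of complex I, and its loss is known to cause Leigh syndrome. Ndufs4 read 13.15 and 13.01 in WT, 13.45 and 13.16 in SA at day 20, 12.96 and 13.33 at day 38, and 12.04 and 12.34 at day 60. Both day 60 arrays lay below the other 6. The difference from day 38 was −0.95 (SE 0.20, 95% interval −1.44 to −0.46), a 1.93-fold lower level, and its adjusted p of 0.0641 in limma missed the threshold of 0.05. Over the settings tried that adjusted p ran from 0.0453 to 0.228, lowest when either day 20 array was left out, where the difference itself is the same. From day 20 the difference was −1.12 (SE 0.20, adjusted p = 0.0913), and the adjusted p ran from 0.0373 without SA day 20 replicate 2 to 0.289. Fits with 1 day 20 array assume that it varies like the other groups. The other 3 probes of the gene read −0.39, −0.25 and −0.59 from day 38 and −0.72, −0.64 and −0.79 from day 20, lower in each but by less. The probe at −0.25 read 10.65 and 10.97 at day 60, and so overlapped SA day 38 replicate 1 at 10.77.

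Atp5pb, subunit b of the stalk that holds the ATP synthase head still, followed. It read 12.06 and 12.05 in WT, 12.13 and 12.33 in SA at day 20, 12.05 and 12.42 at day 38, and 11.50 and 11.39 at day 60. Its day 60 arrays also lay below the other 6, with a difference from day 38 of −0.79 (SE 0.17, adjusted p = 0.0668). Atp5j, coupling factor 6 of the same stalk, read 13.98 and 14.38 at day 38 and 13.59 and 13.60 at day 60, a difference of −0.58 (SE 0.18, adjusted p = 0.107, from −0.79 to −0.38 over the arrays left out). A second Atp5j probe past the filter did not share this, at 0.13. The 4 tested stalk genes, with Atp5j taken from its brightest probe, had a median of −0.36 from day 38 and −0.41 from day 20. Atp5h and Atp5o, the others, stood at 0.04 and −0.14 from day 38. In a median of 4 genes the choice of the Atp5j probe weighs heavily. The 5 genes of the catalytic head and central shaft had medians of −0.07 and −0.14. The first is the value of Atp5b, whose intensities stood at the top of the range. Atp5a1, the alpha subunit, read 0.43 higher at day 60 than at day 38 (SE 0.25), from 0.10 without SA day 38 replicate 1 to 0.76 without replicate 2.

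Sdhb, the iron-sulphur subunit of succinate dehydrogenase, read 11.55 and 11.61 at day 20, 11.24 and 11.64 at day 38, and 11.13 and 10.69 at day 60. The day 60 arrays lay lowest in SA, with differences of −0.53 (SE 0.22, adjusted p = 0.187) from day 38 and −0.67 (adjusted p = 0.151) from day 20. The difference from day 38 was −0.75 without SA day 60 replicate 1 and −0.31 without replicate 2. Its partners Sdhc and Sdhd differed by −0.11 and 0.17 from day 38.

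Cox4i2, a form of subunit 4 known from lung and from low oxygen, was the gene with the highest difference at day 60. It read 7.44 and 7.49 in WT, 6.99 and 7.61 in SA at day 20, 7.45 and 7.17 at day 38, and 8.45 and 7.96 at day 60. Both day 60 arrays lay above the other 6, which stood close to the filter at 7.24. The differences were 0.90 (SE 0.26, adjusted p = 0.103) from day 38 and 0.91 (adjusted p = 0.132) from day 20, and the latter ran from 0.60 without SA day 20 replicate 1 to 1.22 without replicate 2. Over all settings tried its adjusted p ran from 0.0480 to 0.348, lowest without replicate 2, where the lone day 20 array is assumed to vary like the other groups. Cox4i1 differed by 0.18 and 0.03 in the same comparisons.

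**Figure D4:**
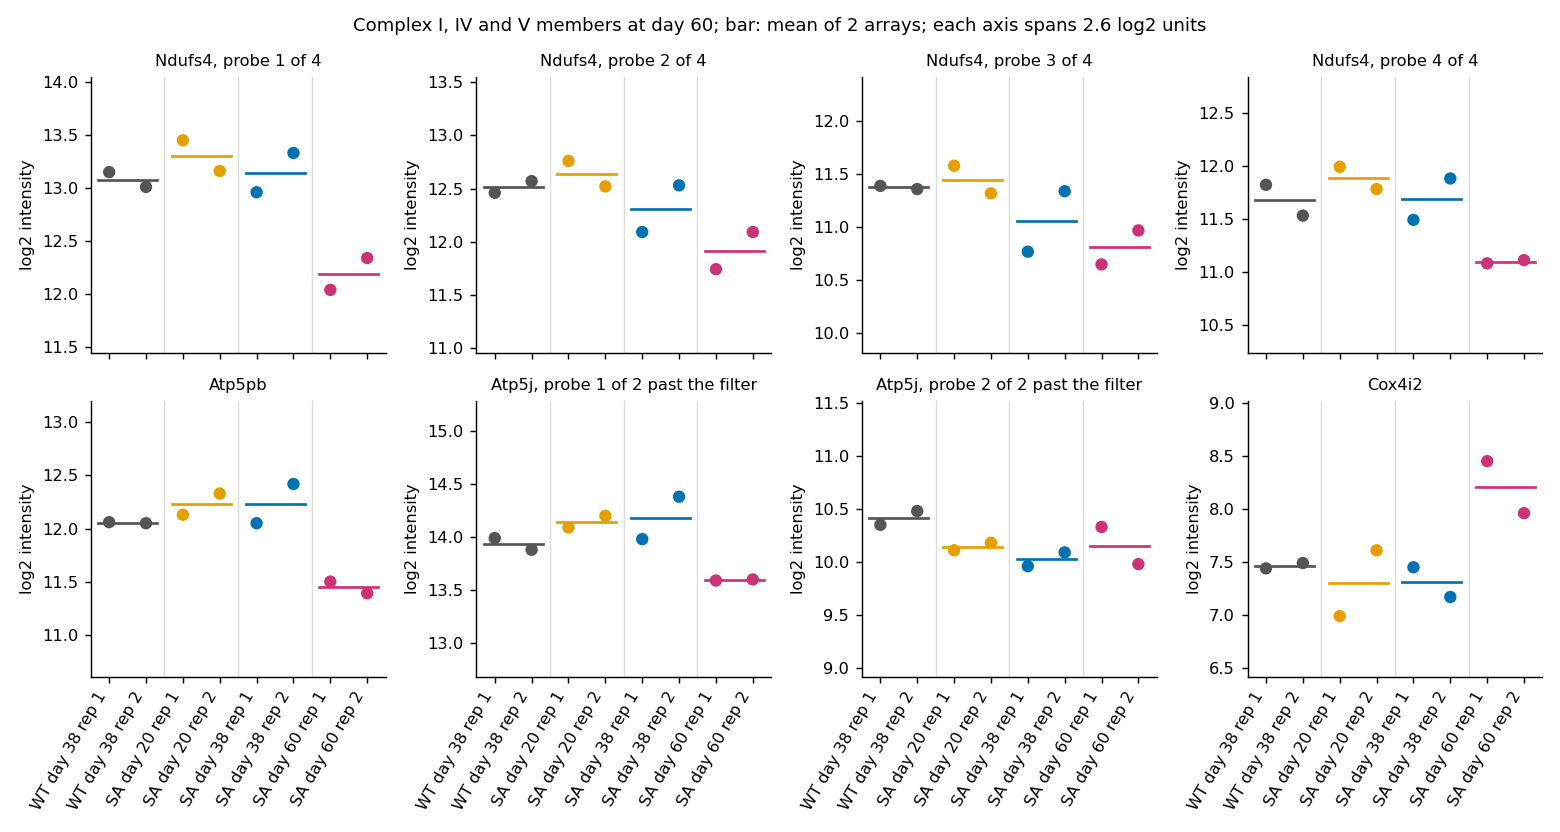
Log2 intensity on each of the 8 arrays for the 4 probes of Ndufs4, for Atp5pb, for the 2 Atp5j probes past the filter and for Cox4i2, 1 point an array with a bar at each group's mean. At day 60 the brightest Ndufs4 probe reads 12.04 and 12.34, Atp5pb 11.50 and 11.39 and Cox4i2 8.45 and 7.96, while the second Atp5j probe reads 10.33 and 9.98, within the 9.96 to 10.48 of the other arrays.

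From day 20 to day 60, days that share the male pattern of Xist and Eif2s3y, 14 of the 81 genes read higher and 67 lower, with a median of −0.19 against 0.03 over all features, of which 53.4% read higher and 46.6% lower. Limma called 0, as it did over all features (0.00%), and an unadjusted p under 0.05 was found for 1 gene higher and 12 lower, against 13.8% and 9.67% of all features. The groups did not overlap for 47 genes that were lower and 2 that were higher, against 22.7% and 30.0% of all features. All 7 tested complex III genes lay lower at day 60 without overlap, with a median of −0.30. Uqcrh, the hinge protein of that complex, read 13.93 and 13.93 at day 20 and 13.51 and 13.60 at day 60, a difference of −0.37 (SE 0.13, adjusted p = 0.162). The medians were −0.33 for complex IV (−0.24 without the muscle isoforms), −0.26 for complex V, −0.15 for complex I and −0.04 for complex II. The median of the 81 genes was −0.31 without SA day 20 replicate 1 and −0.11 without replicate 2, and without replicate 2 the counts at an unadjusted p under 0.05, 1 higher and 12 lower, became 4 and 3.

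Among the genes lower at day 60 than at day 20, Ndufc1, an accessory subunit in the membrane arm of complex I, read 13.37 and 13.50 at day 20 and 12.88 and 12.50 at day 60. The difference was −0.75 (SE 0.23, adjusted p = 0.141), and the second probe of the gene gave −0.73. Cycs, the gene of cytochrome c, read 8.30 and 8.41 at day 20 and 8.33 and 8.25 at day 60, a difference of −0.07. A second Cycs probe past the filter gave −0.40. The 8 melanocyte markers had a median 2.43 higher at day 60 than at day 20, with 6 of 8 apart (30.0% of all features were) and 0 called. Their median deviation differed by 3.27 between the day 20 arrays, with replicate 1 the lower, and by 0.55 between the day 60 arrays. All 25 skeletal muscle markers read lower, with a median of −2.42 and 22 apart (22.7% of all features were). The median deviation of the muscle markers differed by 2.95 between the day 60 arrays, with replicate 2 the lower, and by 0.99 between the day 20 arrays. Lower values were also read for 6 of 7 fibroblast markers (median −0.97) and 5 of 5 macrophage markers (median −0.84). The part of tumour makeup in the gene differences from day 20 to day 60 was not tested.

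Where genes stood apart on both arrays of a group from all 6 other arrays, a pattern looked for after the values were seen, WT lay low and day 20 lay high. Both WT arrays lay below the others for 15 of the 81 genes (18.5%, against 9.31% of all features) and above them for 0 (against 12.4%). The 15 were Ndufa3, Ndufa9, Ndufa10, Ndufa12, Ndufb9, Ndufs7 and Ndufv1 of complex I, Sdhc and Sdhd of complex II, Cyc1, Uqcr10 and Uqcrc1 of complex III, Atp5g1 and Atp5g2 of complex V, and Cycs. A second Uqcr10 probe past the filter did not share this, at 15.30 and 15.23 in WT against 15.13 on SA day 38 replicate 1. Nor did a second Cycs probe, at 7.71 and 8.15 in WT against 7.61 on SA day 60 replicate 1. Both day 20 arrays lay above the others for 10 genes (against 5.21% of all features), among them Cox5b and Cox6c of complex IV and Uqcrc1 and Uqcrh of complex III, and below for 0 (against 5.85%). Day 38 lay above for 0 and below for Ndufa2 and Ndufaf3 (against 3.37% and 4.96% of all features). Both day 60 arrays lay below the others for 10 genes (12.3%, near the 10.5% of all features) and above them for Cox4i2 and Ndufa2 (against 15.1%).

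Genes that work beside the respiratory chain were read from lists, and 0 genes of the 5 lists were called in any of the 4 comparisons by limma. Of 15 tested genes of the citric acid cycle, which feeds the chain with NADH and succinate, 14 read higher in SA than in WT at day 38 (47.0% of all features did), with a median of 0.28, and 4 had an unadjusted p under 0.05 (6.23% of all features). Cs, the citrate synthase, read 12.58 and 12.42 in WT and 12.85 and 13.34 in SA (0.60, adjusted p = 0.283). Fh1, the fumarase, read 12.18 and 12.68 at day 38 and 11.63 and 11.66 at day 60, a difference of −0.79 (adjusted p = 0.0823). Of 70 tested proteins of the mitochondrial ribosome, which makes the chain subunits encoded in mitochondrial DNA, 52 read lower at day 60 than at day 38 (46.3% of all features did), with a median of −0.18 and 17 at an unadjusted p under 0.05 (11.0% of all features). The 27 tested assembly factors outside the symbol rule had medians from −0.19 to 0.05 over the 4 comparisons, and the 6 tested carriers and channels, such as Vdac1 and Slc25a3, medians from −0.30 to 0.09.

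The 14 tested regulators of mitochondrial genes had medians between −0.02 and 0.05 in all 4 comparisons. Ppargc1a, the coactivator, read 7.19 and 7.21 in WT, 8.77 and 9.82 in SA at day 20, 8.27 and 8.35 at day 38, and 9.23 and 9.15 at day 60. All 6 SA arrays lay above both WT arrays, which stood below the filter value. The difference at day 38 was 1.11 (SE 0.32, adjusted p = 0.258). Within SA it was −0.99 from day 20 to day 38 and 0.88 (adjusted p = 0.148) from day 38 to day 60. The respiratory genes tended to lower values in both of these steps. Whether Ppargc1a bears on their levels here was not tested.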

How the data were processed

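The authors deposited a value table of linear intensities for 25697 probes, quantile normalized without background subtraction as read from the values; per the submitters' processing notes GenomeStudio 1.8 was used. Another table of signals was left out, because its 8 sample columns carry slide positions that no label ties to a sample. The intensities were corrected with limma 3.58.1 in R 4.3.3 by normexp (offset 16, saddle-point) and log2-transformed. Features with a mean above the 40th percentile (7.24) and the brightest probe of each gene were kept, which left 11661. Group means over all 8 arrays were modelled (lmFit and eBayes, 4 residual and 2.49 prior degrees of freedom), with Benjamini-Hochberg adjustment over all 11661, called under 0.05. The fit was tested on simulated data. Values near background understate differences. Whether the samples of each group are separate mice is not in the labels, and p-values then measure only the spread of these samples, whose number limits the precision.

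Members and lists were chosen with earlier results of these data known. Genes were named by rule: those called, the smallest p in each complex, the 3 smallest p in each direction among groups that did not overlap, and the isoform pairs with Cycs; others named were chosen after their values were seen. Medians of lists are descriptions without a test. Replicate numbers were checked for pairing (correlation of deviations −0.20 to 0.11) and do not pair the samples. Alternatives were other background corrections, filters and probe rules, quantile normalization, the compared arrays alone, a replicate block, array weights, a variance trend and each array left out. A single item of the mouse model is not reported here.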

Additional observations from a re-analysis of the deposited data

How the results depend on the processing

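Under 10 other settings of the fit (background correction, offset, normalization, filter, probe rule, compared arrays alone, array weights, variance trend, replicate block) limma called 0 of the genes in all 4 comparisons and the medians moved by less than the spread between replicates. The replicate block, whose numbers do not pair the samples, called 0 in each comparison as well, with 4 genes at an unadjusted p under 0.05 in SA against WT at day 38 in place of 7. With arrays left out in turn, calls ran from 0 to 1 from day 38 to day 60 and from 0 to 2 from day 20 to day 60, and 0 in the others. The median over the genes ran from 0.021 to 0.29 in SA against WT at day 38, from −0.20 to 0.043 from day 20 to day 38, from −0.25 to 0.017 from day 38 to day 60 and from −0.31 to −0.11 from day 20 to day 60. The count at an unadjusted p under 0.05 in SA against WT at day 38, 7 higher, was 18 without SA day 38 replicate 1, 1 without replicate 2 and 0 without WT replicate 2. From day 38 to day 60 the 9 lower genes were 3 with the compared arrays alone and 5 with the replicate block.

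These differences changed sign when 1 array was left out, with the following ranges over the arrays left out. In SA against WT at day 38 these were Cox4i1 from −0.012 to 0.026, Cox6a1 from −0.039 to 0.27 and Cox8a from −0.056 to 0.11. From day 20 to day 38 these were Cox4i2 from −0.30 to 0.32, Cox6a1 from −0.15 to 0.27, Cox6a2 from −1.19 to 0.26, Cox6b1 from −0.39 to 0.028, Cox6b2 from −0.090 to 0.56, Cox8a from −0.23 to 0.42 and Sdhd from −0.31 to 0.011. From day 38 to day 60 these were Cox6a1 from −0.087 to 0.019, Cox6b1 from −0.20 to 0.088, Cox6b2 from −0.13 to 0.034, Cox7a1 from −2.70 to 0.015, Cox7a2 from −0.16 to 0.14 and Cycs from −0.033 to 0.046. From day 20 to day 60 these were Cox4i1 from −0.084 to 0.15, Cox6a1 from −0.18 to 0.24 and Cox6b2 from −0.14 to 0.51. With the mean of all its probes, Cycs turned from 0.01 to −0.061 from day 38 to day 60; the cause was not tested.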

Other observations

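Probes of the same gene did not always share a direction. Of 13 genes with 2 or more probes past the filter, the probes shared the sign of the difference in 8 in SA against WT at day 38, in 9 from day 20 to day 38, in 7 from day 38 to day 60 and in 12 from day 20 to day 60. The largest gap between probes from day 38 to day 60, 0.72, belonged to Atp5j.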
